A study of Homo sapiens with 6 samples.

Results

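SEC61G, LANCL2, VOPP1 and VSTM2A lie close to EGFR in band 7p11 of human chromosome 7, and their RNA was examined in CD109-KO and parental A431 cells. The 4 genes were taken by their symbol in the platform annotation of the array. Probe sets with that symbol were found for LANCL2 and VOPP1, 1 each, so that 2 of the 4 genes are described by their own values, among 17687 genes with a named probe set. SEC61G and VSTM2A were matched by neither symbol, Entrez ID nor accession and are not analysed here, though an unnamed probe set could read them, and for them only genes that work with them or are related to them are described. 

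A total of 6 samples were measured on Affymetrix Clariom S human arrays, 1 array each. Of these, 3 were CD109-KO clones (26, 32 and 180) of A431, a human epidermoid carcinoma cell line known for its amplified EGFR gene. The clones had been made by CRISPR/Cas9 with guides against exon 1 or exon 2 of CD109, and each was grown from a single sorted cell, so that a clone stands for 1 edited cell. The others were 3 parental A431 samples (5, 2 and 6), which carried no such edit. No other treatment or allele is given for either group. The study asked with these arrays which genes changed when CD109, a cell surface protein held by a GPI anchor that binds TGF-β, was lost. 

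In tumours in which EGFR, the receptor for epidermal growth factor, is amplified, the extra copies often take in a stretch of chromosome with other genes, and SEC61G, LANCL2 and VOPP1 are well known passengers of such amplicons in glioblastoma. LANCL2 is a LanC-like protein, a mammalian relative of bacterial enzymes that build lanthionine rings, and sits partly at the plasma membrane. VOPP1, once named for its co-amplification with EGFR, is a membrane protein of endosomes and lysosomes that binds the tumour suppressor WWOX. SEC61G is the small gamma subunit of the channel through which new secretory proteins enter the endoplasmic reticulum, and VSTM2A is a secreted protein with an immunoglobulin V-set domain that has a role in fat cell precursors of the mouse. 

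In GRCh38 LANCL2 spans 55365337 to 55433737 of chromosome 7 (68401 bases), 153.7 kb beyond the end of EGFR, which spans 55019017 to 55211628. VOPP1 follows at 55434964 to 55572502 (137539 bases), with only 1226 bases between the annotated ends of the pair. SEC61G (54752253 to 54759211) and VSTM2A (54542375 to 54571067) lie on the other side of EGFR, 259.8 kb and 448 kb before its start. LANCL2 and VOPP1 thus lie on the same side, within 0.42 Mb of the start of EGFR.

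The sequence around the start of a gene was looked up in a RefSeq table of GRCh38.p14 that holds windows of 300 bases, most of each before the start. Of the 4 genes SEC61G, VOPP1 and VSTM2A had windows in this table and LANCL2 had none. Those of SEC61G and VSTM2A, which have no array values here, are not shown. Shown are the windows of VOPP1, of EGFR and of NIPSNAP2, a further neighbour that lay below background in every CD109-KO array. They are read 5′ to 3′ on the strand of the gene, which is the minus strand for VOPP1 (chr7:55572453-55572752) and the plus strand for NIPSNAP2 (chr7:55964335-55964634) and EGFR (chr7:55018767-55019066). Capitals mark each GC box, GGGCGG on either strand, so that CCGCCC is marked as well. 
VOPP1: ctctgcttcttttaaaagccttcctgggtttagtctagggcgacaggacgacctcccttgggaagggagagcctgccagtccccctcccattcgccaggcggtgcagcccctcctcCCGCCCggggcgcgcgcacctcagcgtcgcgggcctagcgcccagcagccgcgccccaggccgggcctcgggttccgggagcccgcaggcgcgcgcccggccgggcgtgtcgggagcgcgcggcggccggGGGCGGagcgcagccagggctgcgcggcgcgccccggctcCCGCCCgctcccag
NIPSNAP2: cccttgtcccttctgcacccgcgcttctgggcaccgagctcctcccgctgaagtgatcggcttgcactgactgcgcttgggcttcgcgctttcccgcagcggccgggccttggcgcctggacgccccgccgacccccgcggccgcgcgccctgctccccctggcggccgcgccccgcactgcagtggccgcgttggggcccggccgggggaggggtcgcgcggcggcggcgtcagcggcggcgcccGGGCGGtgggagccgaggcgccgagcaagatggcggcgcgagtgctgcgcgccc
EGFR: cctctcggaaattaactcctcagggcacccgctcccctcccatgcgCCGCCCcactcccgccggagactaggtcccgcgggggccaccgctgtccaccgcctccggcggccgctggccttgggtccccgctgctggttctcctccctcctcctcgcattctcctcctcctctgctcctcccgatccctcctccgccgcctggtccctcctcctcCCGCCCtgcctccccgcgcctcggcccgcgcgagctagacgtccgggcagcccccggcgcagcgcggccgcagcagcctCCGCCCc

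The VOPP1 window held 3 GC boxes, the NIPSNAP2 window 1 and the EGFR window 3, and 45% of the 35116 windows in the table held at least 1. A CCAAT box (CCAAT, either strand) was in 34.6% of all windows and a TATA box (TATAAA, either strand) in 11.5%, and the 3 windows shown held 0 of each. CpG dinucleotides numbered 40 in the VOPP1 window, 47 in that of NIPSNAP2 and 33 in that of EGFR, against a median of 14 over the table. Start regions of this kind, rich in CpG and without a TATA box, are typical of widely used genes, and the letters say nothing of which factor binds there. VOPP1 has 7 start windows in the table, of which the one at its outer boundary is shown.

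As a check of the labels, CD109 itself had log2 signals of 3.64, 3.45 and 3.62 in CD109-KO clones 26, 32 and 180, against 7.57, 7.75 and 8.13 in parental samples 5, 2 and 6. A background level was set for each array at its 95th percentile over probe sets of 349 olfactory receptors, smell receptors of the nose with no known use in carcinoma of the skin. CD109 lay below it in all 3 CD109-KO arrays, where it was at least 4.69-fold lower than in parental cells. The level averaged 5.59 over the CD109-KO arrays and 4.14 over the parental ones, and 7841 to 8691 genes lay above it in a CD109-KO array, against 12106 to 12297 in a parental one. The array groups therefore stood apart in their dim signals as well, and the part this has in the results below was not tested. Calls were made at the study's thresholds, an adjusted p under 0.01 together with a change of 2-fold or more. Of the 17687 genes 26.8% were called lower in CD109-KO cells and 36.2% higher. These shares are those of the fit used here. At the same thresholds the study reported fewer genes, with more of them lower than higher, and the cause of that difference was not tested. Of 10 measured epithelial and keratinocyte markers 10 were called lower in CD109-KO cells, with a summed linear signal of 1412 to 1433 against 12805 to 16041 in parental cells, and EPCAM, CDH1 and KRT18 lay below background in every CD109-KO array. Of 9 measured fibroblast markers 7 were called higher and 1 lower, with a summed linear signal of 3912 to 4618 in CD109-KO cells against 271.9 to 308.1 in parental cells, although LUM, PDGFRA, FAP and POSTN lay below background in every CD109-KO array. COL1A2 alone made up 83.7 to 84.9% of the CD109-KO sums, and without it the sums were 603.4 to 696 in CD109-KO cells against 181.8 to 227.2 in parental cells. KRT17, TP63 and COL3A1 were not matched. How far this change of marker genes bears on the neighbours of EGFR was not tested.

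LANCL2 and VOPP1 were both far lower in CD109-KO cells. LANCL2 had log2 signals of 5.73, 5.76 and 6.28 in CD109-KO clones 26, 32 and 180, against 9.41, 9.39 and 9.96 in parental samples 5, 2 and 6. Clone 180 and parental sample 6 were the highest of their groups, and the highest clone stayed more than 3 log2 units below the lowest parental sample. The means were 5.92 ± 0.31 in CD109-KO cells and 9.59 ± 0.33 in parental cells (SD, n = 3 each), a log2 fold change of -3.66 (SE 0.26, 95% confidence interval -4.23 to -3.10, adjusted p = 4.99e-07, limma with Benjamini-Hochberg adjustment). On the linear scale LANCL2 was 12.7-fold lower in CD109-KO cells (8.56 to 18.8). What was left in the clones was close to background, above which LANCL2 lay by 0.19, 0.25 and 0.57 log2 units in clones 26, 32 and 180, against 5.19 to 5.89 in parental arrays. In bulk RNA, fewer cells with a transcript and less transcript per cell cannot be told apart.

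VOPP1 had log2 signals of 5.78, 6.77 and 6.81 in CD109-KO clones 26, 32 and 180, against 9.10, 10.06 and 9.23 in parental samples 5, 2 and 6. Clone 26 lay about 1 log2 unit below the other clones and parental sample 2 nearly as far above the other parental samples, and the groups did not overlap. The means were 6.45 ± 0.58 in CD109-KO cells and 9.46 ± 0.52 in parental cells (SD, n = 3 each), a log2 fold change of -3.01 (SE 0.34, 95% confidence interval -3.75 to -2.26, adjusted p = 1.42e-05, limma). VOPP1 was thus 8.05-fold lower in CD109-KO cells (4.80 to 13.5). It lay above background by 1.26 and 1.10 log2 units in clones 32 and 180, and by only 0.24 in clone 26. 

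These changes have to be read against the whole array, on which many genes moved. In CD109-KO cells 26.8% of genes were called lower, and all 3 CD109-KO values lay below all 3 parental values for 31.8%. Both of the 2 matched neighbours were called lower with no overlap, a count too small to set against these shares. By size, LANCL2 fell further than 95.5% of all genes and VOPP1 further than 91.6%, and among the 11370 genes above background in all 3 parental arrays, 40.5% of which were called lower, further than 93.1% and 87.0%. An exact two-sided permutation test over the 6 samples gave p = 0.1 for each gene, the smallest value that 3 against 3 allows.

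**Figure D1:**
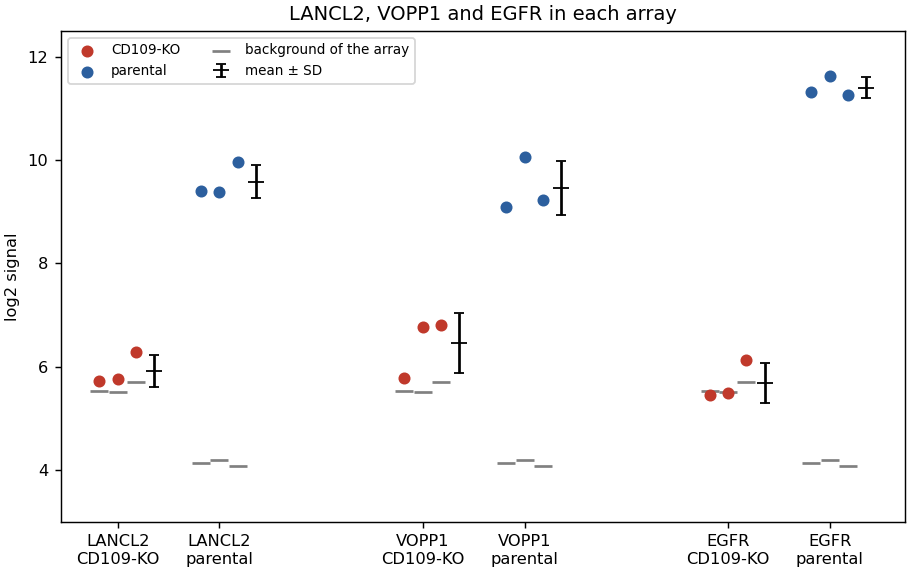
Log2 signal of LANCL2, VOPP1 and EGFR in each of the 6 arrays (vertical axis), with CD109-KO clones 26, 32 and 180 left of parental samples 5, 2 and 6. Bars are mean ± SD (n = 3) and grey ticks the background of each array. LANCL2 and EGFR sit at 5.45 to 6.28 in the CD109-KO arrays, close to the ticks, and all parental values sit at 9.10 or above.

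EGFR, the gene they neighbour, had log2 signals of 5.45, 5.48 and 6.14 in CD109-KO clones 26, 32 and 180, against 11.32, 11.64 and 11.26 in parental samples 5, 2 and 6. Its log2 fold change was -5.72 (SE 0.25, adjusted p = 6.26e-08, limma), a fall further than that of 99.8% of all genes. In clones 26 and 32 EGFR lay just below background and in clone 180 it was 0.42 above it, so that in 1 of 3 CD109-KO arrays it was measured above background. Clone 180 was thus the highest clone for EGFR, LANCL2 and VOPP1, and parental sample 6 was the highest parental sample for LANCL2 only.

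The neighbours were next set against EGFR within each array, a difference that does not depend on how the array is scaled by a constant. LANCL2 minus EGFR was 0.28, 0.28 and 0.15 in CD109-KO clones 26, 32 and 180, against -1.91, -2.25 and -1.30 in parental samples 5, 2 and 6. VOPP1 minus EGFR was 0.33, 1.29 and 0.68 in the same clones, against -2.22, -1.58 and -2.03 in the parental samples. The values of the 2 groups did not overlap for either gene. With EGFR at or below background in clones 26 and 32 and LANCL2 barely above it, these differences largely follow the parental signals of the probe sets, and no difference between the falls of the neighbours and of EGFR is drawn from them. A change less negative than that of EGFR, by the thresholds above, was fitted for 98.8% of all genes as well.

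LANCL2 and VOPP1, although next to each other, could not be separated by the size of their change. LANCL2 minus VOPP1 was -0.05, -1.01 and -0.53 in clones 26, 32 and 180, against 0.31, -0.67 and 0.74 in parental samples 5, 2 and 6. The change of LANCL2 minus that of VOPP1 was -0.66 with a 95% confidence interval of -1.72 to 0.41 (adjusted p = 0.25, limma). That fit rests on a spread pooled over all probe sets and not on the spread of this pair alone, so the bounds are only a rough guide. An exact permutation test on the 6 differences gave p = 0.3. The interval holds 0, and it also holds a fall of LANCL2 more than 3-fold larger than that of VOPP1. Since LANCL2 lay close to background in every clone, and VOPP1 in clone 26, this too is limited by the background. Over single samples, clone 26 was low for VOPP1 but not set apart for LANCL2, which had little room above background to show it. Among the parental samples, where both genes were far above background, the highest was 2 for VOPP1 and 6 for LANCL2. These are single arrays, and no difference in pattern between the genes is drawn from them.

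The size of the falls depended on how the arrays were put on 1 scale, while their direction and call did not. Centring each array on 41 genes that every cell needs (subunits of RNA polymerase II, the proteasome, the spliceosome and others) gave -2.26 for LANCL2 and -1.60 for VOPP1 on the log2 scale. Those 41 genes were themselves mostly lower, 26 of them called, with a median change of -1.68. Centring on 23 antigenomic background controls gave -4.87 for LANCL2 and -4.22 for VOPP1, and on 4 hybridization controls -4.56 and -3.91. Across all settings run both genes were called lower.

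**Figure D2:**
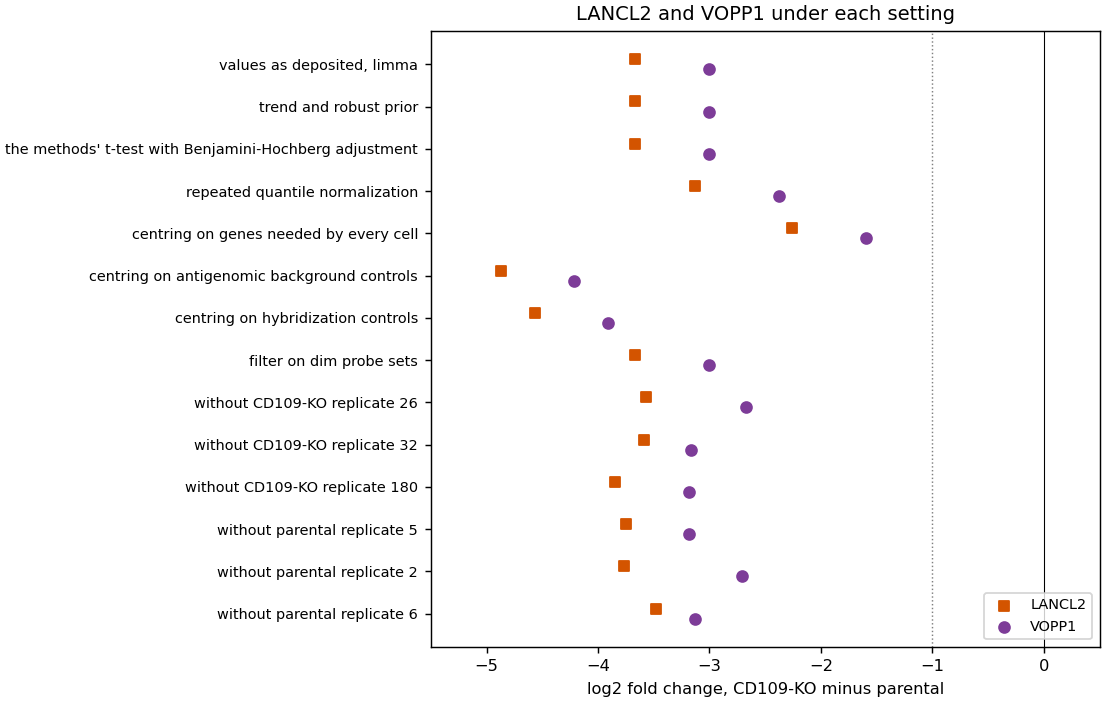
Log2 fold change of LANCL2 (squares) and VOPP1 (circles), CD109-KO minus parental (horizontal axis), under each setting (rows). The dotted line marks a fold change of 2 in the lower direction. LANCL2 lies between -2.26 and -4.87 and VOPP1 between -1.60 and -4.22.

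Along the chromosome, both falls and rises were called around EGFR. Besides EGFR, LANCL2 and VOPP1, 20 genes with a named probe set start within 5 Mb of the start of EGFR, of which 6 (30%, beside 26.8% of all genes) were called lower in CD109-KO cells, 10 (50%, beside 36.2%) higher and 4 neither. Over all 20 the share of falls is thus near that of the whole array, but dim genes can hardly be called lower. Among the 9 above background in all 3 parental arrays, 6 (66.7%) were called lower and 2 (22.2%) higher. For all such genes the shares were 40.5% and 25.3%, and for those of chromosome arm 7p 50% and 22.0%. Of the 20 genes, 7 lay below background in every array. Among them were IKZF1, DDC, PHKG1, ZNF479 and ZNF716, which were all called higher, IKZF1 and DDC before EGFR and the others beyond it. Much of the count of rises thus rests on signals under background. That background was itself higher in CD109-KO arrays (5.59 against 4.14). All 6 called lower lie beyond the end of EGFR, where 13 genes were measured, and 0 of the 7 measured before EGFR were called lower while 5 were called higher. Only 1 of those 7 (POM121L12) was above background in all 3 parental arrays, against 8 of the 13 beyond EGFR, so that a fall before EGFR could hardly have been called. The lowest value there was that of FIGNL1, a gene of DNA repair named after its value was seen, with a log2 fold change of -1.15 (95% confidence interval -2.21 to -0.08), which did not pass. Within 2 Mb, 6 of 12 genes (50%, beside 26.8% of all genes) were called lower and 4 higher, and between 2 and 10 Mb 2 of 30 were lower and 13 higher. Of those 12 genes 9 lay above background in all 3 parental arrays, but of the 30 only 10. A smaller part of the 30 could thus have been called lower, and the 2 counts are not alike in this. On arm 7p as a whole 34.3% of genes were called lower. The median log2 fold change was -0.85 within 2 Mb, beside 0.51 over all genes. Among genes above background in all 3 parental arrays it was -1.47 within 2 Mb, beside -1.07 on arm 7p and -0.47 over all genes.

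**Figure D3:**
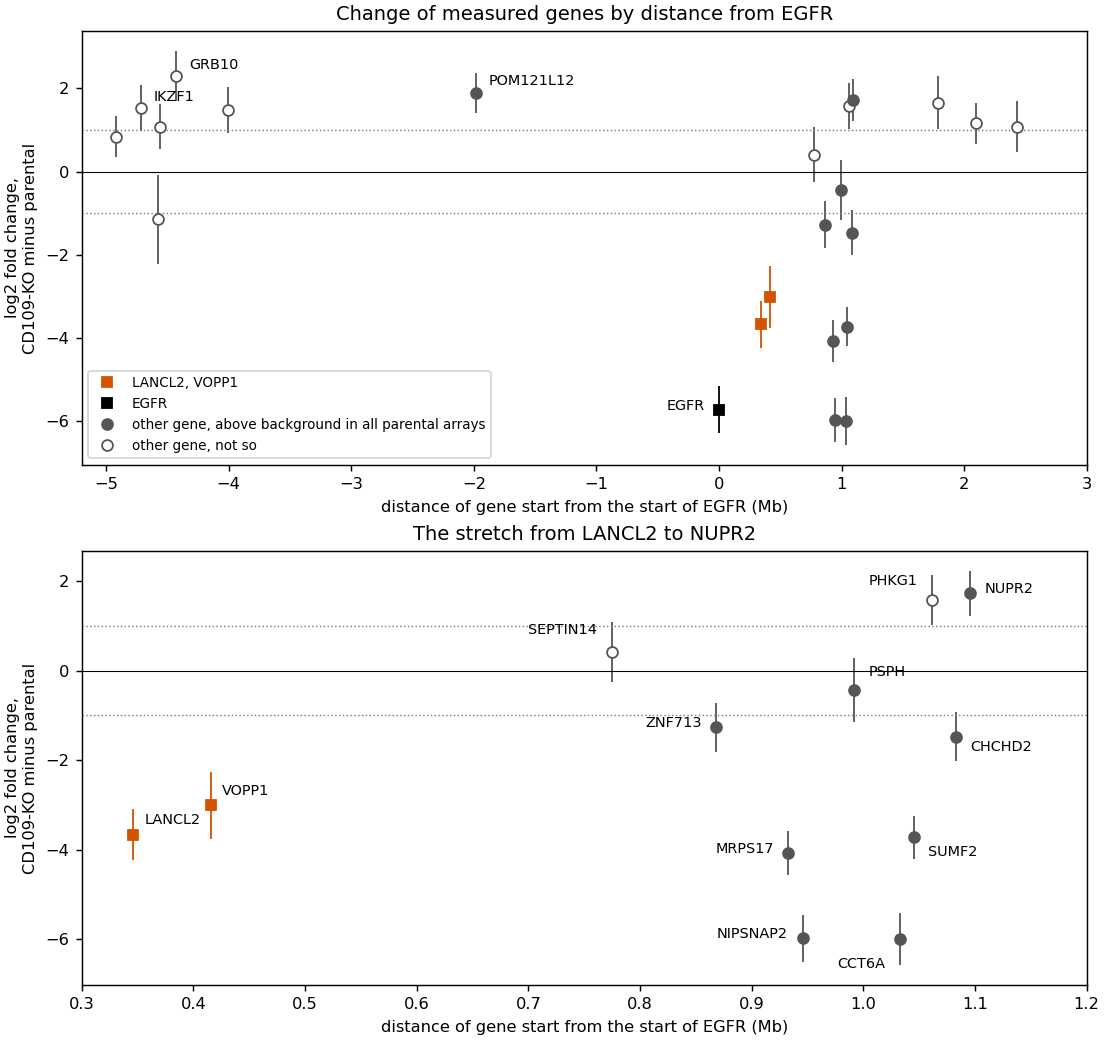
Log2 fold change with its 95% confidence interval, CD109-KO minus parental (vertical axis), against the distance of the gene start from the start of EGFR in Mb (horizontal axis), for the genes within 5 Mb (top) and for the stretch from LANCL2 to NUPR2 (bottom). Filled symbols are genes above background in all 3 parental arrays. Fitted values are drawn, also where CD109-KO values lie under background and only a bound holds. LANCL2 (-3.66) and VOPP1 (-3.01) lie between EGFR (-5.72) and a second group of low genes at 0.93 to 1.05 Mb, and the genes before EGFR lie mostly above 0.

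That second group starts 0.93 Mb from the start of EGFR. CCT6A, a subunit of the chaperonin that folds actin and tubulin, had log2 signals of 4.67, 4.82 and 5.11 in CD109-KO clones 26, 32 and 180, against 11.13, 10.37 and 11.07 in parental samples 5, 2 and 6. NIPSNAP2, a mitochondrial protein once named for its amplification in glioblastoma, had 3.78, 3.38 and 3.73 in the clones, against 9.36, 9.90 and 9.54 in parental samples. Both lay below background in every CD109-KO array, and measured against it CCT6A was at least 38.6-fold and NIPSNAP2 at least 16.1-fold lower in CD109-KO cells. Both were called lower (adjusted p = 6.22e-08 for CCT6A and 5.43e-08 for NIPSNAP2, limma). With these levels under background, their falls cannot be ordered against that of EGFR or against each other. 

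MRPS17, a protein of the small mitochondrial ribosomal subunit, had 4.65, 5.06 and 4.86 in CD109-KO clones 26, 32 and 180, against 8.74, 9.13 and 8.92 in parental samples 5, 2 and 6, and was at least 10.1-fold lower in CD109-KO cells. SUMF2, a relative of the enzyme that activates sulfatases, had 6.98, 7.18 and 6.90 in the clones, against 10.62, 10.78 and 10.84 in parental samples, with a log2 fold change of -3.72 (SE 0.21, adjusted p = 1.42e-07, limma). SUMF2 stayed above background in all arrays. CHCHD2, a mitochondrial protein that also acts in the nucleus, and the zinc finger gene ZNF713 were called lower with log2 fold changes of -1.47 and -1.27, ZNF713 with CD109-KO values under background, so that the size of its fall is not known. Each lost its call when arrays were centred on genes needed by every cell, CHCHD2 also under a repeated quantile normalization and ZNF713 also with the methods' t-test. PSPH, the phosphatase that makes serine, lies between NIPSNAP2 and CCT6A and was above background in all arrays. It had 6.64, 5.82 and 6.02 in the clones, against 6.44, 6.08 and 7.27 in parental samples, and with overlapping groups it did not pass the test (log2 fold change -0.43, 95% confidence interval -1.16 to 0.29). Genes of the same short stretch therefore differed widely in how far they changed. PSPH and CCT6A have pseudogenes elsewhere, and whether their probe sets also read these was not tested.

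Other neighbours were higher in CD109-KO cells. POM121L12, a relative of a nuclear pore gene and the nearest gene measured before EGFR, had 6.60, 6.62 and 6.39 in CD109-KO clones 26, 32 and 180, against 4.50, 4.83 and 4.58 in parental samples 5, 2 and 6, a log2 fold change of 1.90. NUPR2, a relative of a stress-induced nuclear protein, rose by 1.72 and the uncharacterised LOC401357 by 1.66. Both were above background in only 2 of 3 CD109-KO arrays, and LOC401357 in 0 of 3 parental ones. LOC401357 was no longer called with the methods' t-test. PHKG1, the muscle type catalytic subunit of phosphorylase kinase whose annotated span overlaps that of SUMF2, rose by 1.58 but was below background in every array, and the testis septin SEPTIN14 (0.41) did not pass. Further off, the 3 largest rises within 5 Mb were those of GRB10, an adaptor of the insulin receptor (2.30), IKZF1, a lymphocyte transcription factor (1.52, below background in every array), and COBL, an actin nucleator (1.49). GRB10 was above background in 3 of 3 CD109-KO and 1 of 3 parental arrays, and COBL in 2 of 3 of each group. Of all these rises only that of GRB10 kept its call when arrays were centred on the hybridization controls, and 0 did when they were centred on the antigenomic controls, under which the median change of all genes moved to -0.39 and -0.70. 

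The genes whose pattern over the 6 arrays was most like that of a neighbour were found by the root mean square difference of log2 values, each gene centred on its own mean. For LANCL2 these were CS, citrate synthase of the mitochondrion (0.057 log2 units), NEDD4, a ubiquitin ligase (0.070), and VCP, the ATPase that pulls proteins out of complexes and membranes (0.092). CS had 5.75, 5.84 and 6.24 in clones 26, 32 and 180 against 9.53, 9.48 and 10.08 in parental samples 5, 2 and 6, with clone 180 and parental sample 6 the highest of their groups as for LANCL2. For VOPP1 they were MPZL2, an epithelial adhesion protein (0.163), MBOAT7, a phospholipid acyltransferase (0.196), and RAB11FIP1, an effector of RAB11 in recycling endosomes (0.212). In all 3 clones NEDD4 and RAB11FIP1 lay under background, and their likeness rests on values under it. None of the 6 lies on chromosome 7. By this measure VOPP1 came 1426th for LANCL2 and LANCL2 938th for VOPP1, with 0.60 between them, and EGFR 3469th and 5983rd. Genes were centred but not scaled, so the size of a fall enters the measure as well as its pattern. EGFR lay at or near background in the clones and LANCL2 close to it. These ranks are therefore limited like the differences from EGFR above, and no difference in pattern is drawn from them.

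SEC61G itself was not matched, but 34 genes of the same route into the endoplasmic reticulum were. Of these 23 (67.6%) were called lower in CD109-KO cells, 1 higher and 10 neither, with a median log2 fold change of -1.66, beside 26.8% lower and a median of 0.51 over all genes and 40.5% lower among genes above background in all parental arrays, as 33 of the 34 were. The 41 genes needed by every cell gave a like share, 63.4% lower with a median of -1.68. Of its partners at the Sec61 channel 6 of 10 were lower. The pore-forming subunit SEC61A1 averaged 5.13 ± 0.23 in CD109-KO cells and 8.04 ± 0.32 in parental cells (SD, n = 3 each), and was called lower (adjusted p = 1.92e-06, limma). It lay below background in all 3 CD109-KO arrays and was at least 5.47-fold lower there. The small beta subunit SEC61B averaged 8.36 ± 0.30 in CD109-KO cells and 7.84 ± 0.11 in parental cells (SD, n = 3 each) and did not pass (0.52). TRAM1, which helps chains into the membrane and was above background in 2 of 3 CD109-KO arrays, fell by 3.77 on the log2 scale, and SSR3 and SSR1, subunits of a complex that sits at the channel, had log2 fold changes of -2.87 and -2.11. SEC61B was the only 1 of the 10 with a positive value, and that value was smaller than the shift between the groups of the hybridization (0.90) and antigenomic (1.21) controls themselves. 

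Of the signal recognition particle and its receptor, which bring ribosomes to the channel, 6 of 8 were lower, among them SRP72, SRP54, SRP14 and SRP9. SRP72 and SRP54 lay below background in every CD109-KO array and were at least 19.1-fold and at least 1.12-fold lower, while SRP14 and SRP9 had log2 fold changes of -3.11 and -2.19. Of the oligosaccharyltransferase, which adds sugar chains at the channel, 9 of 11 matched subunits were lower, among them RPN1, DAD1, DDOST and RPN2, with log2 fold changes of -5.32, -4.13, -3.93 and -2.93, DDOST with 1 of 3 CD109-KO arrays above background. TMEM258 was not matched. Signal peptidase, which cuts off the signal sequence, was divided. Its subunits SPCS3 (at least 8.52-fold, below background in every CD109-KO array) and SEC11A (log2 fold change -1.24) were called lower and SPCS2 (2.16) higher, with 8.59 ± 0.08 in CD109-KO cells and 6.42 ± 0.26 in parental cells (SD, n = 3 each), while SPCS1 (-0.98) and SEC11C (0.01) did not pass. The count of 23 became 12 when arrays were centred on genes needed by every cell and 30 when they were centred on antigenomic controls, and the rise of SPCS2 lost its call under the antigenomic controls.

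**Figure D4:**
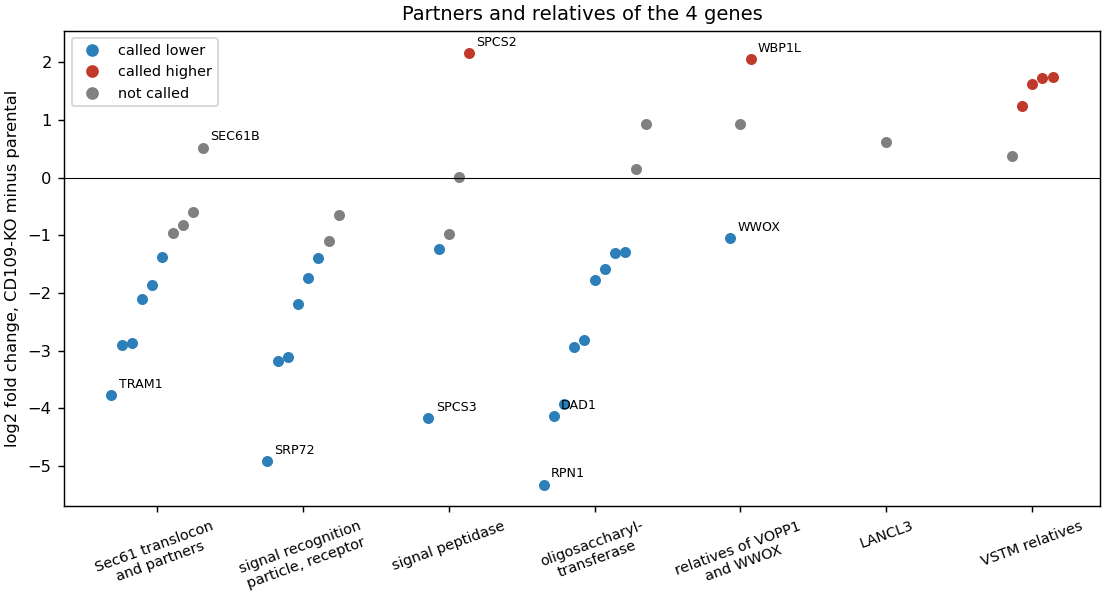
Log2 fold change, CD109-KO minus parental (vertical axis), of genes that work with SEC61G (left 4 columns) and of relatives of VOPP1, LANCL2 and VSTM2A (right 3 columns), each point a gene, coloured by its call, drawn at its fitted value also where CD109-KO values lie under background. Most partners of SEC61G lie below 0, down to -5.32 for RPN1, with SPCS2 alone called higher, and 4 of 5 VSTM relatives were called higher.

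Relatives of the other 3 genes gave mixed results. LANCL3, the only other LanC-like gene matched, lay below background in every array and did not pass (0.62), and LANCL1 was not matched. Of the relatives of VOPP1, WBP1 did not pass (0.93) and WBP1L, which like WBP1 carries motifs bound by WW domains, averaged 8.94 ± 0.03 in CD109-KO cells and 6.88 ± 0.29 in parental cells (SD, n = 3 each), a log2 fold change of 2.05 (adjusted p = 1.29e-05, limma). WBP1L lost its call when arrays were centred on antigenomic controls, and WBP1 gained one under a repeated quantile normalization and when they were centred on genes needed by every cell. WWOX, the tumour suppressor that VOPP1 binds, fell by 1.04, just past the fold threshold, and was above background in 2 of 3 CD109-KO arrays. It was no longer called with the methods' t-test, a repeated quantile normalization or centring on genes needed by every cell. Leaving out CD109-KO clone 26 or clone 32 also took its call away. Of 5 VSTM relatives of VSTM2A, 4 were called higher, beside 36.2% of all genes. The closest, VSTM2B and VSTM2L, rose by 1.62 and 1.75 and VSTM1 and VSTM4 by 1.24 and 1.73, the last 2 from below background in every array, as was VSTM5, which did not pass (0.38). None of these 4 rises kept its call when arrays were centred on the antigenomic or the hybridization controls.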

How the data were processed

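RNA was measured on 1 array for each of the 3 clones and 3 parental samples. For 24351 probe sets the authors deposited log2 signals, background-corrected and normalized in Affymetrix software by an algorithm that the sources used here do not give. Transcriptome Analysis Console and hg38 are named in the submitters' processing notes. Values were used as deposited, without the 2903 control probe sets. Probe sets were named through the platform annotation (17709 of 21448), and positions taken from RefSeq (GRCh38.p14) by Entrez ID. Where a gene had several probe sets, the brightest was used.

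CD109-KO minus parental was fitted in limma 3.58.1 (R 4.3.3), with lmFit and eBayes, and adjusted by Benjamini-Hochberg over 21448 probe sets. The scripts were tested on simulated data. For a gene below background in 1 group, the bound on the fold compares the brighter group's mean with the dim group's, each dim value raised to background where it was lower. The fit of LANCL2 minus VOPP1 was added after the data were seen. The study gives a biological n of 3 and technical triplicates for its arrays. The labels name the CD109-KO samples as separate clones, but do not say whether the parental samples were separate cultures. The p-values therefore measure only how far these samples spread, which may be technical among the parental samples.

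The members and lists were chosen with earlier results of these data known. Named were the members, EGFR, CD109, every gene within 2 Mb, the 3 largest called rises and falls beyond (0 falls were called there), up to 4 genes of each longer list (shorter lists in full) and the 3 most alike genes. SEC61B, FIGNL1, DDC, ZNF479 and ZNF716 fall outside this rule and were picked with their values in view. Alternatives were another prior, the methods' t-test, 4 other scalings, a filter on dim probe sets, other fold thresholds, other windows and leaving out each array.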

Additional observations from a re-analysis of the deposited data

Results flagged for a closer look

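Of 155 probe sets whose ID has the form of chromosome 7 but which are unnamed here, 15 were called lower in CD109-KO cells and 65 higher. Over all named genes the shares were 26.8% lower and 36.2% higher. The unnamed probe sets were flagged because they are measured but stand outside the genes described above. How many of them lay above background was not counted. All 800 named probe sets with an ID of that form lie on chromosome 7. Which genes the unnamed ones read, and whether any of them lies near EGFR, was not tested.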

How the results depend on the processing

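LANCL2 and VOPP1 kept their direction and their call in all settings run, and leaving out each array gave -3.48 to -3.84 for LANCL2 and -2.67 to -3.19 for VOPP1. No paired analysis was possible because the groups share no replicate number, and neither gene has a second probe set to set beside the first. Counts of calls moved more. The methods' t-test called 3140 genes lower in all, against 4746 by limma. Under a repeated quantile normalization 6 genes within 5 Mb were higher, against 10, and 4 partners of SEC61G, against 1, and the values of SEPTIN14 (-0.082), SEC11C (-0.16) and VSTM5 (-0.20) turned negative. Centring on genes needed by every cell called 2204 genes lower and 11370 higher (16.2% of calls lower, against 42.5%), with 12 partners of SEC61G lower and 5 higher, and turned PSPH (0.97), ZNF713 (0.14), SEC11A (0.17), SPCS1 (0.43) and WWOX (0.37) positive. Centring on antigenomic controls called 7504 lower and 553 higher (93.1%), with 0 genes within 5 Mb and 0 partners higher, and turned SEPTIN14 (-0.79), SEC11C (-1.20), LANCL3 (-0.58), WBP1 (-0.28) and VSTM5 (-0.83) negative. Centring on hybridization controls called 934 higher (86.7% of calls lower), with 1 gene within 5 Mb higher, and turned SEPTIN14 (-0.49), SEC11C (-0.89), LANCL3 (-0.27) and VSTM5 (-0.52) negative. The filter on dim probe sets left 3712 genes higher, 4 of them within 5 Mb (55.3% of calls lower). A minimum fold of 1.5 gave 2 partners higher. A minimum fold of 4 gave 2978 genes lower and 1127 higher, 1 gene within 5 Mb higher and 14 partners lower (72.5%). With windows of 2 and 10 Mb, 4 and 17 genes were higher. Leaving out 1 array gave 1 to 2 partners higher, and moved SEC11C between -0.33 (without parental sample 2) and 0.27 (without parental sample 6), with -0.11 without CD109-KO clone 26. Of the single genes named, 55 further values lost their call in some setting and 13 gained one. The cause of these shifts was not tested, apart from the smaller number of genes under the filter. The number of arrays, and CD109-KO levels near background, limit how far a fall can be measured.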
